A study of Mus musculus with 18 samples.

Results

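The genes described here are 39 mouse genes of fatty acid, sterol and phospholipid synthesis, chosen by name and matched by Entrez gene identifier to the 27179 genes counted. They comprise 14 genes of fatty acid synthesis and modification, 10 of sterol synthesis, 4 regulators of both, 6 of phospholipid and glycerolipid synthesis, and 5 of lipid uptake and export. All 39 passed the filter on low counts, which left 17989 genes.

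RNA was sequenced from 6 populations of epithelial and non-epithelial cells sorted from untreated young adult male C57BL/6 mice. Each population had 3 libraries, which makes 18. Basal stem cells (BSCs, NGFR+) and tracheal non-basal cells (NGFR-) came from the tracheas of 3 mice. Airway cells enriched in ciliated cells (EpCAM+ CD104+ CD24hi), airway cells enriched in club cells (EpCAM+ CD104+ CD24lo), non-epithelial cells (EpCAM-) and alveolar cells (EpCAM+ CD104lo) came from the lungs of 3 others. The study asks what sets BSCs apart from the other cells of the airways and lung, and the alveolar cells are the population that makes surfactant. Every library is a sorted mixture and not a single cell type, no mouse gave both trachea and lung, and in bulk samples fewer cells of a type and less RNA per cell cannot be told apart.

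Fatty acid synthesis runs from citrate through cytosolic acetyl-CoA and malonyl-CoA to palmitate, which is then elongated, desaturated and joined to coenzyme A for use in lipids. Sterol synthesis runs from acetyl-CoA through mevalonate, farnesyl diphosphate and squalene to cholesterol. Both are switched on by SREBP transcription factors, which SCAP carries out of the endoplasmic reticulum when sterols are low and which INSIG proteins hold back when sterols are high. Alveolar type 2 (AT2) cells use these pathways to make surfactant, a film rich in dipalmitoyl phosphatidylcholine with phosphatidylglycerol and cholesterol that keeps the alveoli open.

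Counted reads ran from 29317215 to 32993621 in the tracheal libraries and from 9811503 to 13208897 in the lung libraries. Organ, animals and cell type cannot be told apart in any comparison of tracheal with lung cells. Summed basal, ciliated and club markers were highest where the labels place them. Basal markers stood at 1717 to 1801 RPKM (read counts scaled for gene length and library size) in BSC libraries. Ciliated markers stood at 1336 to 1479 in CD24hi and club markers at 497200 to 699600 in CD24lo libraries. Club markers also stood at 9836 to 11990 RPKM in BSC, 72900 to 96110 in CD24hi and 102500 to 108500 in tracheal non-basal libraries. In BSC and CD24hi libraries these sums exceeded those of the basal and ciliated markers. The part of club cell RNA in these gates was not tested. The summed level of 4 AT2 markers was 173000 to 193600 RPKM in alveolar libraries, against 5984 to 8575 in CD24lo, 1391 to 2617 in CD24hi, 593 to 1017 in EpCAM- and 9.53 to 18.3 in BSC and at most 349 in tracheal non-basal libraries. The alveolar gate also held alveolar type 1 markers (1526 to 1542 RPKM, 4 genes, highest of the 6 populations), fibroblast markers (145 to 233 RPKM against 6860 to 7153 in EpCAM- cells, 6 genes) and few macrophage markers (19.4 to 38.0 RPKM, 7 genes). Fibroblast markers were at a like level in BSC (159 to 163 RPKM) and CD24lo libraries (165 to 199). They were lower in tracheal non-basal (28.8 to 45.4) and CD24hi libraries (35.0 to 65.3). Endothelial markers (4 genes) stood at 43.4 to 82.0 RPKM in alveolar, 52.7 to 198 in CD24hi, 112 to 257 in CD24lo and 128 to 222 in EpCAM- libraries. Smooth muscle markers (3 genes) were highest in EpCAM- libraries (990 to 1046 RPKM). The 3 mesothelial markers were instead highest in tracheal non-basal libraries (1226 to 1268 RPKM), against 14.7 to 31.9 in EpCAM- libraries. CD24hi replicate 1 differed from the other CD24hi libraries over the 39 genes by a median of 0.357 on the log2 scale, and its values are named where they bear on a result. The next largest medians of this kind were 0.257 for CD24lo replicate 1 and 0.253 for alveolar replicate 2.

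Alveolar cells gave far more of their reads to these genes than any other population did. The 39 genes took 1.96% to 2.38% of counted reads in the alveolar libraries and 0.219% to 0.354% in the other 15, so the ranges did not overlap. Genes of fatty acid synthesis took 1.68% to 2.07% in alveolar cells, of which *Scd1* alone took 0.980% to 1.31%. Without *Scd1* the other fatty acid genes still took 0.702% to 0.789%, against 0.0977% to 0.168% elsewhere. Sterol genes took 0.0742% to 0.0993% in alveolar libraries, 0.0493% to 0.0650% in CD24hi libraries and 0.0219% to 0.0343% in the rest. Regulator genes took 0.107% to 0.124% in alveolar libraries and 0.0391% to 0.0697% elsewhere. Phospholipid and glycerolipid genes took 0.0708% to 0.0757% in alveolar libraries, close above the 0.0554% to 0.0652% of CD24hi libraries. Uptake and export genes differed, with 0.0302% to 0.0351% in BSCs and 0.0340% to 0.0383% in EpCAM- cells above the 0.0208% to 0.0226% of alveolar cells.

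**Figure D1:**
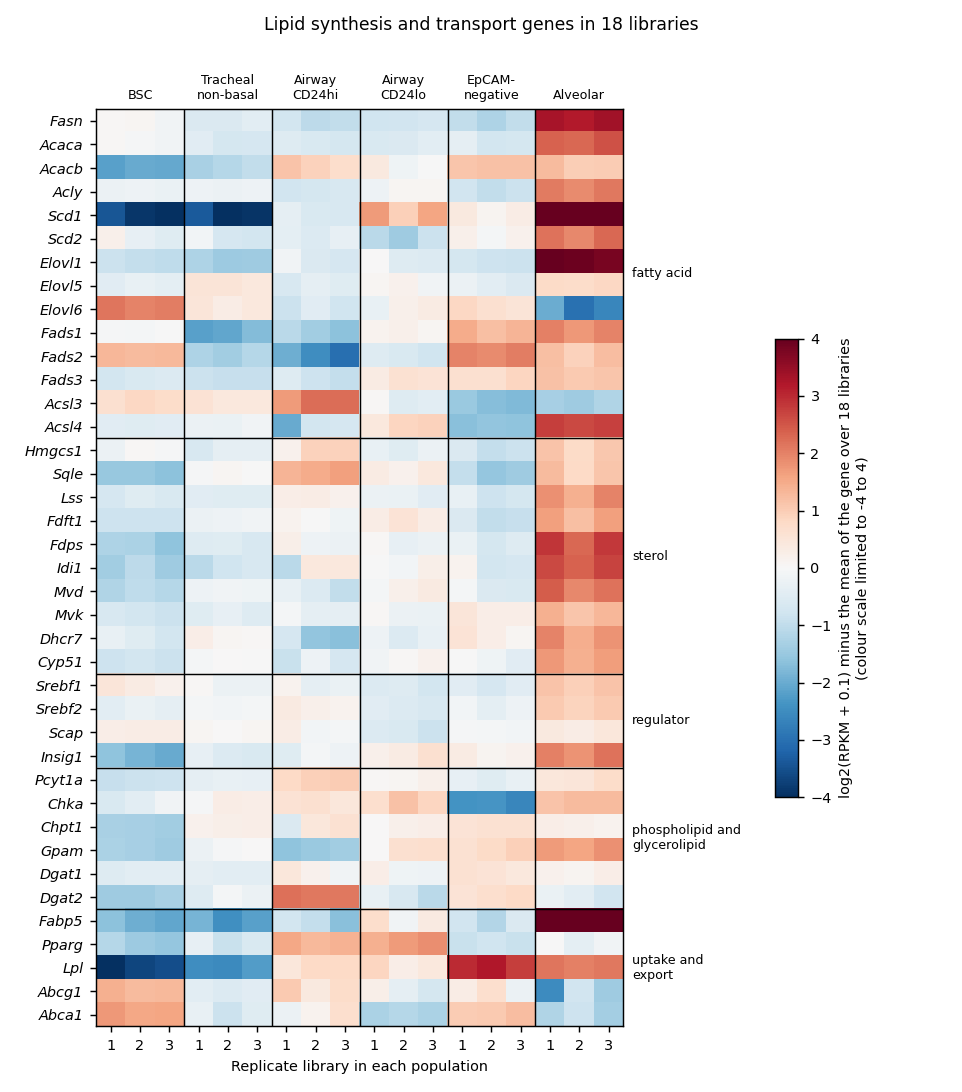
Levels of the 39 genes (y axis, grouped by class) in the 18 libraries (x axis, grouped by population), coloured by log2 of RPKM plus 0.1 minus the mean of the gene over the libraries, with the colour limited to -4 and 4. The 3 alveolar libraries are the highest for most fatty acid, sterol and regulator genes, while *Elovl6*, *Acsl3*, *Abcg1* and *Abca1* are low in them.

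Differences between populations were tested on the counts with edgeR's quasi-likelihood test and Benjamini-Hochberg adjustment over the 17989 genes, and a gene is called at an adjusted p under 0.05. The 5 alveolar comparisons share the alveolar libraries. Against BSCs, 33 of the 39 genes were higher and 4 lower in alveolar cells, beside 35.6% and 30.5% of all genes tested (66.1% in either direction). Against tracheal non-basal cells 33 were higher and 4 lower (all genes 32.5% and 31.6%, together 64.0%). Against CD24hi cells 27 were higher and 8 lower (31.4% and 30.5%, together 61.9%), and against CD24lo cells 30 were higher and 4 lower (24.2% and 24.2%, together 48.4%). Against EpCAM- cells 29 were higher and 7 lower (29.2% and 32.7%, together 61.9%). Over the 39 genes, the median log2 fold change was 2.27, 1.74, 1.54, 1.55 and 1.48 in these comparisons in turn, against a median over all genes of at most 0.093 in size.

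Of the 39 genes, 23 were higher in alveolar cells than in each of the other 5 populations, where 8.06% of all genes tested were. Scaling by library size alone left 21, without *Elovl5* and *Fads3*. They were *Acly*, *Acaca*, *Fasn*, *Scd1*, *Scd2*, *Elovl1*, *Elovl5*, *Fads1*, *Fads3* and *Acsl4* among fatty acid genes, and *Mvk*, *Mvd*, *Idi1*, *Fdps*, *Fdft1*, *Lss*, *Cyp51* and *Dhcr7* among sterol genes. The regulators *Srebf1*, *Srebf2* and *Insig1*, with *Gpam* and *Fabp5*, completed them. *Elovl6* and *Abcg1* were lower in alveolar cells than in each other population (4.30% of all genes). BSCs had 2 such genes above every other population, *Elovl6* and *Abca1* (7.96% of all genes; a gene length offset dropped *Abca1* against EpCAM- cells, 0.26, adjusted p = 0.181), and 10 below (5.98%): *Acacb*, *Fdps*, *Mvd*, *Mvk*, *Insig1*, *Pcyt1a*, *Chpt1*, *Dgat2*, *Pparg* and *Lpl*. CD24hi cells were highest for *Acsl3*, *Sqle*, *Pcyt1a* and *Dgat2* (14.6% of all genes), and EpCAM- cells for *Fads2*, *Dgat1* and *Lpl* (16.3%). Neither tracheal non-basal cells nor CD24lo cells had a member above each other population, where 4.15% and 1.28% of all genes were. Below each other population stood *Elovl1* and *Fads1* in tracheal non-basal cells (2.63% of all genes), *Fads2* and *Dhcr7* in CD24hi cells (7.91%), *Scd2* and *Scap* in CD24lo cells (1.05%), and *Acsl4* and *Chka* in EpCAM- cells (10.8%).

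Of the 14 fatty acid genes, 11 were higher and 2 lower in alveolar cells than in BSCs, 12 and 2 against tracheal non-basal cells, 11 and 2 against CD24hi cells, 12 and 2 against CD24lo cells, and 10 and 2 against EpCAM- cells. Of all genes tested, 35.6%, 32.5%, 31.4%, 24.2% and 29.2% were higher in alveolar cells in turn. The shares lower were 30.5%, 31.6%, 30.5%, 24.2% and 32.7%. The median log2 fold changes of the 14 genes were 2.29, 2.51, 2.90, 1.88 and 1.61 in turn. The first steps of fatty acid synthesis, *Acly*, *Acaca* and *Fasn*, were higher in alveolar cells than in every other population. *Acly*, which makes cytosolic acetyl-CoA from citrate, stood at 191, 169 and 198 RPKM in the alveolar libraries and at 23.1 to 48.0 in the other 15. *Acaca*, the acetyl-CoA carboxylase that supplies malonyl-CoA for synthesis, stood at 19.9, 18.9 and 22.4 RPKM against 2.24 to 3.87 elsewhere. *Fasn* (chr11:120805958-120825166, GRCm38.p6), the synthase that builds palmitate, stood at 233, 217 and 246 RPKM against 9.97 to 25.3 elsewhere. For none of these genes did an alveolar library overlap any other. The log2 fold change of *Fasn* was 3.28 ± 0.11 (SE) over BSCs, the second population in order, and 4.36 ± 0.12 over EpCAM- cells, the lowest (adjusted p = 6.45e-14 and 4.08e-15). Among the lower populations, BSCs were above tracheal non-basal cells in *Fasn* (log2 fold change 0.53 ± 0.11, adjusted p = 0.000478) and in *Acaca* (0.57 ± 0.11, adjusted p = 0.000308). Tracheal non-basal, CD24lo, CD24hi and EpCAM- cells followed in *Fasn* with no call between neighbours (adjusted p = 0.0909, 0.159 and 0.234).

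The other acetyl-CoA carboxylase followed another order. *Acacb* makes the malonyl-CoA that restrains entry of fatty acids into mitochondria. Its levels were 3.49 ± 0.0844 RPKM (SD, n = 3) in EpCAM-, 3.32 ± 0.389 in alveolar and 2.98 ± 0.480 in CD24hi cells, neighbours that the test did not separate (adjusted p = 0.691 and 0.368). CD24lo cells (1.61 ± 0.353 RPKM), tracheal non-basal cells (0.632 ± 0.0760) and BSCs (0.282 ± 0.0242) followed, each below the one before.

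*Scd1* (chr19:44394450-44407709), a stearoyl-CoA desaturase that makes monounsaturated fatty acids, had the highest level and the widest difference of the 39 genes. It stood at 2903, 2264 and 3072 RPKM in the alveolar libraries, at 60.8 to 103 in CD24lo, 33.8 to 40.7 in EpCAM-, 19.9 to 24.6 in CD24hi and 1.77 to 2.96 in the tracheal libraries. No population overlapped the next except BSCs and tracheal non-basal cells, which the test did not separate (log2 fold change -0.025 ± 0.23, adjusted p = 0.946). The alveolar log2 fold change was 10.28 ± 0.32 over BSCs and 5.00 ± 0.26 over CD24lo cells (adjusted p = 1.69e-14 and 3.29e-11). The level of *Scd1* in the other lung populations, as a percentage of the alveolar mean, was 3.12% in CD24lo, 1.37% in EpCAM- and 0.789% in CD24hi cells. For *Sftpc*, which encodes the AT2 product surfactant protein C, these were 2.70%, 0.407% and 0.748%, and for *Lamp3* they were 2.50%, 0.444% and 0.628%. The other AT2 markers stood higher in the airway gates, *Sftpb* at 13.8%, 0.509% and 3.04% and *Sftpa1* at 12.5%, 0.482% and 2.30%. The part of AT2 RNA in these levels was not tested. *Scd2*, a close paralog, stood at 237, 199 and 257 RPKM in alveolar libraries and at 19.5 to 60.5 elsewhere, again without overlap. CD24lo cells held the lowest *Scd2* (24.4 ± 4.65 RPKM), below each other population. How reads that map to more than 1 of these paralogs were counted is not given in the sources used here, so their levels are less certain than those of single-copy genes.

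The elongases differed in direction. *Elovl1* (chr4:118426874-118432953), which extends saturated and monounsaturated chains to very long ones, stood at 1255, 1115 and 1033 RPKM in alveolar libraries and 26.8 to 74.2 in all others. *Elovl6* (chr3:129532386-129638495), which turns palmitate into stearate, ran the other way, at 0.311, 0.108 and 0.170 RPKM in alveolar libraries (21, 7 and 10 reads) and 7.14, 6.39 and 6.67 in BSC libraries. The alveolar libraries were the lowest of all 18 for *Elovl6* and the BSC libraries the highest. Alveolar cells were 33.8-fold below BSCs (log2 fold change -5.08 ± 0.24, adjusted p = 3.65e-12) and 4.57-fold below CD24hi cells (-2.19 ± 0.27, adjusted p = 1.53e-06). *Elovl1* was 29.2-fold higher in alveolar cells than in BSCs (4.87 ± 0.17, adjusted p = 8.52e-14). *Elovl5*, which extends polyunsaturated chains, was closest between alveolar (79.1, 77.0 and 82.6 RPKM) and tracheal non-basal libraries (65.7, 65.9 and 61.5 RPKM). The groups did not overlap and the log2 fold change was 0.31 ± 0.10 (adjusted p = 0.0147), but the call was lost without non-basal replicate 3 (adjusted p = 0.0573) without alveolar replicate 3 (adjusted p = 0.055) or with library size alone (adjusted p = 0.0555).

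The desaturases of the Fads cluster on chromosome 19 each had their own order. *Fads1* (chr19:10182877-10196874), the delta-5 desaturase of polyunsaturated synthesis, was highest in alveolar cells (125, 103 and 124 RPKM) and next in EpCAM- cells (86.3, 71.1 and 80.3 RPKM). It was lowest in tracheal non-basal cells (6.77, 7.30 and 9.25 RPKM), with BSCs at 30.3, 29.6 and 30.8. *Fads2* (chr19:10062765-10101503), the delta-6 desaturase, was highest in EpCAM- cells (72.1, 68.4 and 75.1 RPKM). BSCs (46.1, 44.0 and 44.6 RPKM) and alveolar cells (41.8, 34.2 and 42.7 RPKM) came next and were not separated (log2 fold change -0.18 ± 0.15, adjusted p = 0.285). Alveolar cells were called lower with library size alone (-0.59, adjusted p = 0.00236), a gene length offset (-0.33, adjusted p = 0.0391) and only the 6 libraries compared (-0.24, adjusted p = 0.0145). CD24hi cells had the least *Fads2*, at 4.65, 3.19 and 2.14 RPKM. *Fads3*, the third paralog (chr19:10040855-10060113), stood at 54.0, 49.0 and 51.9 RPKM in alveolar, 37.0, 37.2 and 43.2 in EpCAM- and 29.9, 36.5 and 34.9 in CD24lo libraries. Those 3 populations were above BSCs, CD24hi and tracheal non-basal cells, all of whose libraries lay at 12.3 to 16.5 RPKM.

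The acyl-CoA synthetases *Acsl3* and *Acsl4*, which activate fatty acids, were opposite in alveolar and CD24hi cells. *Acsl4*, which prefers arachidonate, stood at 152, 137 and 149 RPKM in alveolar libraries and 5.43, 13.2 and 13.8 in CD24hi libraries. *Acsl3* (chr1:78657825-78707743), which acts at the endoplasmic reticulum and lipid droplets, stood at 6.87, 6.43 and 7.41 RPKM in alveolar libraries and 56.0, 81.4 and 82.4 in CD24hi libraries. Neither gene overlapped between these populations. The log2 fold change of alveolar over CD24hi cells was 3.76 ± 0.24 for *Acsl4* and -3.41 ± 0.16 for *Acsl3* (adjusted p = 2.71e-10 and 6.04e-12). EpCAM- cells were low in both, with *Acsl4* at 6.90 to 7.30 RPKM and *Acsl3* at 4.99 to 6.10 RPKM. Alveolar and EpCAM- cells were not separated in *Acsl3* (0.34 ± 0.16, adjusted p = 0.0739). They were called with a gene length offset (0.43, adjusted p = 0.0226) and with only the 6 libraries compared, without (0.36, adjusted p = 0.00492) or with (0.36, adjusted p = 0.00905) the mouse as a block.

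**Figure D2:**
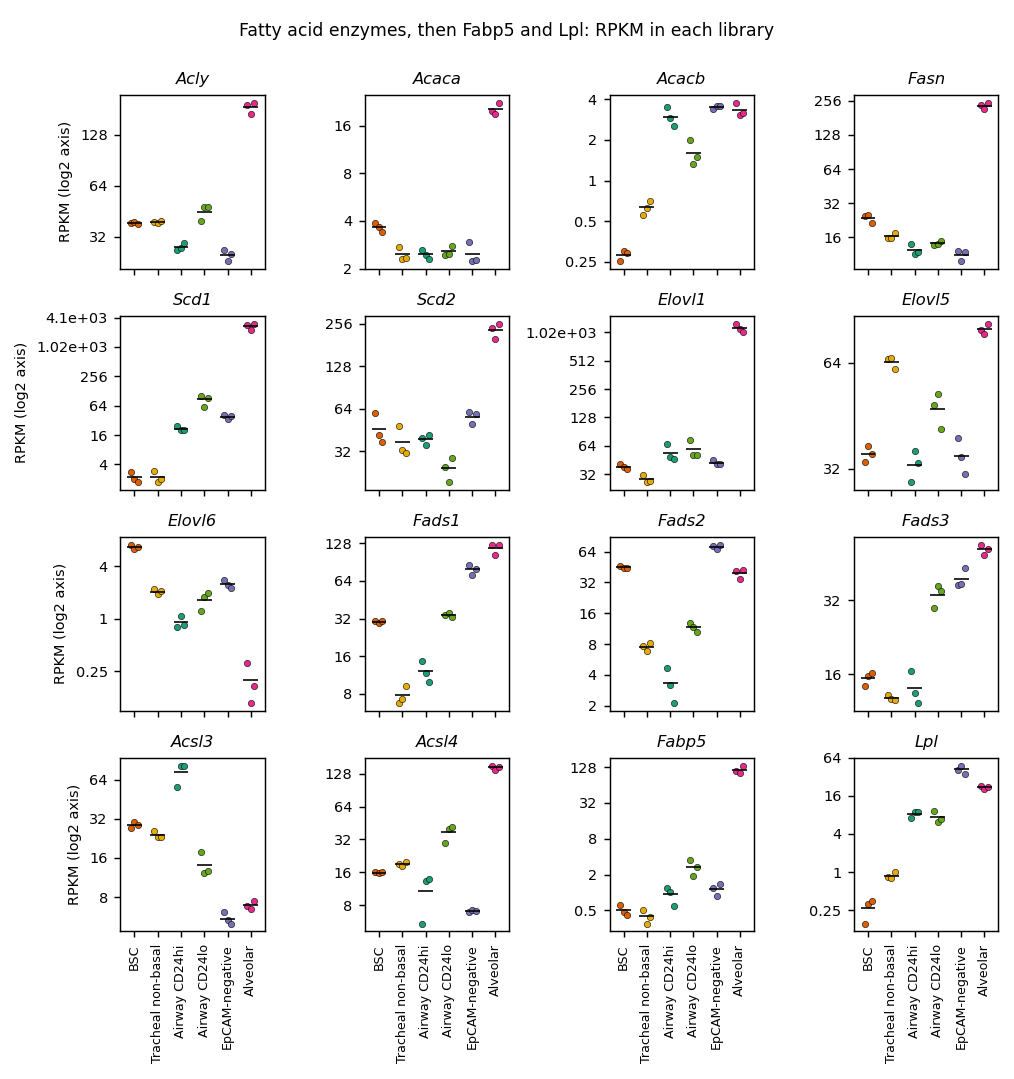
Level (y axis, RPKM on a log2 axis) of 14 fatty acid genes, *Fabp5* and *Lpl* in each library (point) of the 6 populations (x axis), with a bar at the population mean. The alveolar points lie above all others for *Acly*, *Acaca*, *Fasn*, *Scd1*, *Scd2*, *Elovl1*, *Fads1*, *Acsl4* and *Fabp5*, and below all others for *Elovl6*.

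Of 19 other genes of fatty acid synthesis and modification, 18 were tested. In alveolar cells 14 were higher and 3 lower than in BSCs, 12 and 5 against tracheal non-basal cells, 13 and 4 against CD24hi cells, 13 and 5 against CD24lo cells, and 13 and 3 against EpCAM- cells. Of all genes tested, 66.1%, 64.0%, 61.9%, 48.4% and 61.9% were called in turn. The median log2 fold changes of these 18 genes were 1.74, 1.33, 1.11, 1.03 and 1.71. *Slc25a1*, the mitochondrial citrate carrier that feeds *Acly*, averaged 82.7 RPKM in alveolar cells and 19.4 to 30.5 elsewhere. *Me1*, the malic enzyme that supplies NADPH, averaged 72.2 RPKM in alveolar cells and 9.96 to 37.7 elsewhere. *Acss2*, which makes acetyl-CoA from acetate, had another order, with 49.2 RPKM in CD24lo and 40.4 in tracheal non-basal cells against 9.10 in alveolar cells and 5.93 in BSCs. It was lower in alveolar than in CD24lo cells (log2 fold change -2.44 ± 0.13, adjusted p = 8.66e-11).

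All 10 sterol genes were higher in alveolar cells than in BSCs, tracheal non-basal, CD24lo and EpCAM- cells. Of all genes tested, 35.6%, 32.5%, 24.2% and 29.2% were higher in turn. Against CD24hi cells 8 of the 10 were higher, beside 31.4% of all genes. The median log2 fold change of the 10 sterol genes was 2.41 over BSCs, 1.72 over tracheal non-basal, 1.88 over CD24hi, 1.81 over CD24lo and 2.36 over EpCAM- cells. In order of the pathway, the exceptions against CD24hi cells were *Hmgcs1*, the earliest enzyme of the 10, and the squalene step, *Sqle*.

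Promoter sequences are shown because the letters that SREBP, NF-Y and Sp1 are known to bind can be read in them. RefSeq (GRCm38.p6) promoter windows, from 250 bases before an annotated start to 50 after, were found for 28 of the 39 genes. Some genes had several starts, and a match in any of their windows was counted. The sterol regulatory element was searched as TCACNCCAC, the CCAAT box as CCAAT and the GC box as GGGCGG, on both strands. The sterol element occurred in 2 of the 28 genes, *Hmgcs1* at -137 to -129 and *Pcyt1a* at -116 to -108 from the start, and in 1.44% of 27025 genes. A CCAAT box was present in 21 of the 28 (75.0%, all genes 41.1%) and in all 7 sterol genes with a window. A GC box was present in 23 of the 28 (82.1%, all genes 38.2%), in all 7 sterol genes and in 6 of 11 fatty acid genes. The shares of all genes were taken over the 27025 genes, not only those that passed the filter on low counts. They were not matched for the number of starts per gene. A match is a match of letters and not a measured site, and no match says only that these letters are not in the window. The 150 bases before an annotated start are given for both genes with the sterol element, and for *Cyp51* and *Fasn*, a sterol and a fatty acid enzyme without it. Capitals mark the matches, which overlap each other in the GC boxes of *Pcyt1a* and in a pair of CCAAT boxes of *Fasn*. *Hmgcs1* is at chr13:119690201-119690350 (+), *Pcyt1a* at chr16:32430771-32430920 (+), *Cyp51* at chr5:4104698-4104847 (-) and *Fasn* at chr11:120824548-120824697 (-). The bases printed for *Fasn* lie inside the gene span given above, because the start used is not the end of that span.
Hmgcs1: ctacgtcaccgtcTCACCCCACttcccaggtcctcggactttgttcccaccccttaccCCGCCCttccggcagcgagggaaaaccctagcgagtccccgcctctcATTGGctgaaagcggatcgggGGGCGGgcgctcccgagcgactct
Pcyt1a: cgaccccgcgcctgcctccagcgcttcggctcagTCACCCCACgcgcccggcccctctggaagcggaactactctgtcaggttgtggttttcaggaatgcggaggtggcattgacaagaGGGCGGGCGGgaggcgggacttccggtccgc
Cyp51: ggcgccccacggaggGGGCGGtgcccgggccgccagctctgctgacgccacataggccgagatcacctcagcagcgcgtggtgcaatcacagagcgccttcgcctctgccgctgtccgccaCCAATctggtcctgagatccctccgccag
Fasn: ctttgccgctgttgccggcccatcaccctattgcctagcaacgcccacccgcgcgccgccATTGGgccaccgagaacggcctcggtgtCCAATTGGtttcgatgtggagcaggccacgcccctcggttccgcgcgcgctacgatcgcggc

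*Hmgcs1*, which makes HMG-CoA, and the mevalonate kinase *Mvk* and decarboxylase *Mvd* act early in the pathway. *Hmgcs1* stood at 102, 77.4 and 96.4 RPKM in alveolar and 51.7, 87.0 and 86.0 in CD24hi libraries, which overlapped and were not separated by the test (log2 fold change 0.30 ± 0.17, adjusted p = 0.14). All other libraries lay at 23.4 to 47.0 RPKM. CD24hi replicate 1 gave the lowest CD24hi value. *Mvk* stood at 28.4, 23.0 and 26.4 RPKM in alveolar libraries, with EpCAM- cells next at 14.8, 12.7 and 12.6 and the other 4 populations at 5.78 to 10.8. *Mvd* stood at 28.6, 20.5 and 24.2 RPKM in alveolar libraries and 2.27 to 6.79 elsewhere. Both genes separated alveolar cells from every other library, and BSCs were the lowest population for both.

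Among the sterol genes, the isoprenoid steps had the largest log2 fold changes of alveolar cells over BSCs. *Idi1*, the isopentenyl diphosphate isomerase, stood at 10.9, 8.95 and 11.4 RPKM in alveolar libraries and 0.551 to 2.28 elsewhere. *Fdps*, which makes farnesyl diphosphate, stood at 83.3, 56.9 and 82.7 RPKM in alveolar libraries, and the other 15 libraries lay at 3.71 to 13.6. The alveolar libraries overlapped none of the others for either gene. Alveolar cells were 16.8-fold above BSCs in *Fdps* (log2 fold change 4.07 ± 0.18, adjusted p = 1.65e-12) and 16.6-fold above them in *Idi1* (4.05 ± 0.31, adjusted p = 2.57e-09). Against CD24hi cells, second by mean, the log2 fold changes were 2.74 ± 0.17 and 2.56 ± 0.30 (adjusted p = 1.95e-10 and 6.46e-07). CD24hi and CD24lo cells were not separated in *Fdps* or *Idi1* (adjusted p = 0.628 and 0.927). CD24hi replicate 1 held 0.737 RPKM of *Idi1*, against 2.27 and 2.28 in the other CD24hi libraries.

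From squalene onwards, 1 enzyme departed from the rest. *Fdft1*, squalene synthase, stood at 41.3, 30.9 and 41.3 RPKM in alveolar libraries and 6.60 to 19.3 elsewhere. *Sqle*, squalene epoxidase, which introduces the oxygen that cyclisation needs, was instead highest in CD24hi cells, at 49.1, 53.8 and 60.1 RPKM, with alveolar libraries at 46.6, 33.7 and 41.3. No CD24hi value was as low as an alveolar one. The log2 fold change of alveolar over CD24hi cells was -0.42 ± 0.13 (adjusted p = 0.0113), a call lost without alveolar replicate 2 (-0.30, adjusted p = 0.074). BSCs (6.60, 6.63 and 6.09 RPKM) and EpCAM- cells (9.88, 6.46 and 7.12 RPKM) had the least *Sqle*. The enzymes that follow had no such exception. *Lss*, which closes the ring to lanosterol, stood at 26.2, 19.7 and 28.8 RPKM in alveolar libraries and 4.04 to 8.93 elsewhere. *Cyp51*, the lanosterol demethylase, stood at 31.9, 26.0 and 30.5 RPKM against 5.08 to 10.8 elsewhere. *Dhcr7*, the reductase of the last step, stood at 17.8, 12.1 and 15.6 RPKM against 1.31 to 6.44 elsewhere, with CD24hi cells lowest at 2.71, 1.42 and 1.31. For *Fdft1*, *Lss*, *Cyp51* and *Dhcr7* no other library reached an alveolar one.

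**Figure D3:**
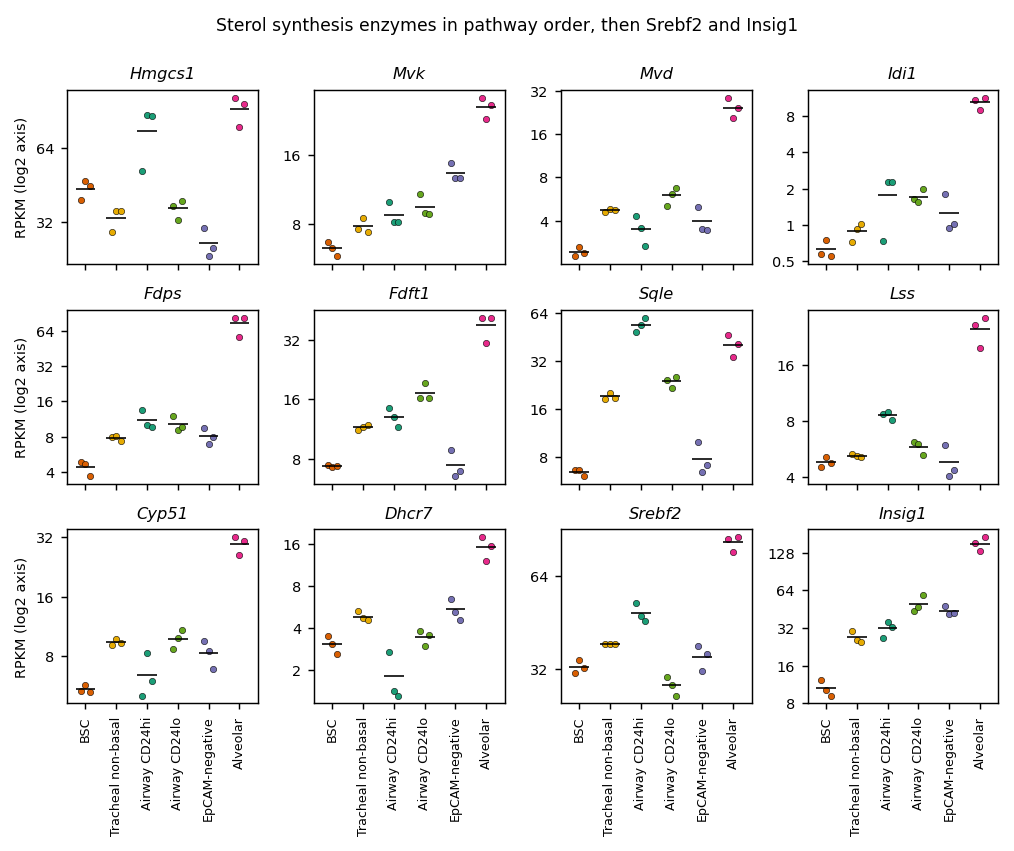
Level (y axis, RPKM on a log2 axis) of the 10 sterol genes, *Srebf2* and *Insig1* in each library (point) of the 6 populations (x axis), with a bar at the population mean. The alveolar points lie above all others in every panel except *Hmgcs1*, where CD24hi points overlap them, and *Sqle*, where CD24hi points are the highest.

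All 12 other sterol genes were tested. In alveolar cells 9 were higher and 1 lower than in BSCs, 10 and 2 against tracheal non-basal cells, and 9 and 1 against each of CD24hi, CD24lo and EpCAM- cells. Of all genes tested, 66.1%, 64.0%, 61.9%, 48.4% and 61.9% were called in turn. The median log2 fold changes of these 12 genes were 1.97, 1.50, 1.79, 1.62 and 1.74. *Msmo1*, a methylsterol oxidase, averaged 87.8 RPKM in alveolar cells and 12.2 to 32.9 elsewhere. *Sc5d*, the sterol desaturase before *Dhcr7*, averaged 30.0 RPKM in EpCAM- and 28.6 in alveolar cells, and 8.66 to 11.9 elsewhere.

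Each of the 4 regulators averaged highest in alveolar cells. *Srebf1*, whose products drive fatty acid synthesis, stood at 104, 91.3 and 104 RPKM in alveolar libraries and next at 66.2, 59.6 and 53.5 in BSCs. The groups did not overlap (0.74 ± 0.13, adjusted p = 6.85e-05). The counts are per gene and do not separate the *Srebf1* isoforms. *Srebf2*, whose product drives sterol synthesis, stood at 85.1, 77.0 and 85.9 RPKM in alveolar libraries and next at 52.4, 47.5 and 45.8 in CD24hi libraries, again without overlap (0.77 ± 0.09, adjusted p = 7.35e-07). *Scap*, the SREBP escort, was the flattest of them, at 25.4, 24.1 and 26.5 RPKM in alveolar libraries and 23.3, 23.6 and 23.6 in BSC libraries. Its log2 fold change over BSCs was 0.11 ± 0.10 (adjusted p = 0.375) and turned to -0.30 (adjusted p = 0.0215) when counts were scaled by library size alone. Against CD24hi cells *Scap* was called (0.34 ± 0.10, adjusted p = 0.00859), but not with only the 6 libraries compared, without (0.26, adjusted p = 0.0792) or with (0.26, adjusted p = 0.0866) the mouse as a block. Nor was it without CD24hi replicate 2 (adjusted p = 0.0538), with a gene length offset (0.27, adjusted p = 0.0503) or with library size alone (0.022, adjusted p = 0.878). CD24lo cells had the least *Scap* (13.4, 12.6 and 10.7 RPKM), below each other population. *Insig1*, which retains SCAP in the endoplasmic reticulum and is itself an SREBP target, had the widest range of the 4, from 12.3, 10.2 and 9.20 RPKM in BSC libraries to 152, 132 and 170.2 in alveolar libraries. Alveolar cells were 14.3-fold above BSCs (3.84 ± 0.16, adjusted p = 6.34e-13) and 3.05-fold above CD24lo cells, second by mean (1.61 ± 0.15, adjusted p = 5.87e-08). CD24lo and EpCAM- cells were not separated in *Insig1* (adjusted p = 0.272). Of 6 other regulators, 3 were higher and 2 lower in alveolar cells than in BSCs, and 1 higher and 3 lower than in EpCAM- cells. Their median log2 fold changes were 0.26 and -0.54, and 66.1% and 61.9% of all genes tested were called in these comparisons.

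Phospholipid and glycerolipid genes include the CDP-choline route to phosphatidylcholine, the main lipid of surfactant. The median log2 fold change of the 6 phospholipid and glycerolipid genes in alveolar cells was 1.50 over BSCs and 0.74 over tracheal non-basal cells, and -0.011, 0.25 and 0.29 over CD24hi, CD24lo and EpCAM- cells. *Chka*, the choline kinase of the first step, stood at 46.8, 50.9 and 50.9 RPKM in alveolar and 34.0, 47.9 and 38.9 in CD24lo libraries, which overlapped. Their log2 fold change was 0.30 ± 0.13 (adjusted p = 0.0752), and a call appeared without CD24lo replicate 2 (0.43, adjusted p = 0.0173). EpCAM- cells had the least *Chka*, at 4.00, 4.02 and 3.41 RPKM, 13.0-fold below alveolar cells (3.70 ± 0.15, adjusted p = 5.53e-13). *Pcyt1a*, whose product makes CDP-choline and sets the rate of the route, was highest in CD24hi cells, at 36.6, 41.1 and 42.6 RPKM, with alveolar libraries at 29.2, 29.7 and 35.1 and BSC libraries lowest at 11.2, 11.7 and 11.9. Alveolar cells were below CD24hi cells in *Pcyt1a* (-0.36 ± 0.089, adjusted p = 0.00199) and above each of the others. *Chpt1*, the cholinephosphotransferase of the last step, was low in BSCs (8.69, 8.51 and 8.20 RPKM) and stood at 14.5 to 33.3 in the other 15 libraries, of which CD24hi replicate 1 was the lowest. No call separated alveolar cells from any population but BSCs in *Chpt1*. Without CD24hi replicate 1, alveolar cells were below CD24hi cells (-0.32, adjusted p = 0.00151), and they were below EpCAM- cells with library size alone (-0.56, adjusted p = 0.0179) and with only the 6 libraries compared, without (-0.35, adjusted p = 0.00023) or with (-0.35, adjusted p = 0.000966) the mouse as a block.

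Glycerolipid genes separated the populations in other ways. *Gpam*, the mitochondrial acyltransferase that begins glycerolipid synthesis, stood at 69.9, 64.1 and 74.9 RPKM in alveolar libraries, above all others, with EpCAM- cells next at 32.5, 36.2 and 40.9 and CD24hi cells lowest at 6.86, 7.45 and 8.09. *Dgat2*, an enzyme of the last step to triglyceride, was highest in CD24hi cells, at 15.3, 14.3 and 14.3 RPKM against 2.66, 2.37 and 1.88 in alveolar libraries. The log2 fold change of alveolar over CD24hi cells was -2.66 ± 0.17 (adjusted p = 2.11e-10), and no CD24hi library overlapped a library of another population. *Dgat1*, the other enzyme of that step, lay between 10.1 and 21.6 RPKM in all 18 libraries. It was lower in alveolar than EpCAM- cells (-0.34 ± 0.14, adjusted p = 0.0356), a call lost on leaving out any 1 of the 6 libraries compared (adjusted p from 0.0553 to 0.107).

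The other 27 phospholipid and glycerolipid genes were all tested. In alveolar cells 13 were higher and 7 lower than in BSCs, 11 and 7 against tracheal non-basal cells, 11 and 10 against CD24hi cells, 12 and 5 against CD24lo cells, and 11 and 7 against EpCAM- cells. Of all genes tested, 66.1%, 64.0%, 61.9%, 48.4% and 61.9% were called in turn. The median log2 fold changes of these 27 genes were small, at 0.11, 0.14, -0.053, 0.32 and 0.13. *Lpcat1*, which remodels phosphatidylcholine to the dipalmitoyl form of surfactant, stood at 785, 668 and 723 RPKM in alveolar libraries and 6.26 to 31.8 in all others. *Pgs1*, which commits CDP-diacylglycerol to phosphatidylglycerol, stood at 127, 124 and 132 RPKM in alveolar libraries and 12.8 to 37.9 elsewhere. Alveolar libraries were above all others for both, 25.2-fold over CD24lo cells in *Lpcat1* (4.65 ± 0.15, adjusted p = 2.21e-13) and 3.92-fold over CD24hi cells in *Pgs1* (1.97 ± 0.11, adjusted p = 4.48e-11). *Cds1*, which makes CDP-diacylglycerol, was highest in CD24hi cells (82.2, 83.5 and 80.1 RPKM), then in alveolar cells (36.8, 37.1 and 43.8 RPKM). EpCAM- cells averaged the least *Cds1* (1.14 RPKM) and the most of its paralog *Cds2* (25.9 RPKM against 10.3 to 18.7 elsewhere). *Pcyt1b*, the paralog of *Pcyt1a*, averaged 9.95 RPKM in CD24hi and 8.37 in tracheal non-basal cells, and 0.0759 in alveolar cells. *Agpat2*, an acyltransferase that makes phosphatidate, averaged 58.0 RPKM in alveolar cells and 14.6 to 29.6 elsewhere. Of the phosphatidate phosphatases, *Lpin2* averaged 74.7 RPKM in alveolar cells against 8.02 to 32.8 elsewhere, and *Lpin1* averaged 7.90 against 2.91 to 10.2.

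Genes of uptake and export moved separately. *Fabp5*, a fatty acid binding protein, stood at 110.3, 101 and 136 RPKM in alveolar libraries and 0.301 to 3.46 elsewhere, with 20, 16 and 14 reads in the BSC libraries. Alveolar cells were 42.7-fold above CD24lo cells, the second population (5.42 ± 0.20, adjusted p = 8.91e-13). As percentages of the alveolar mean, *Fabp5* was at 2.32% in CD24lo, 1.00% in EpCAM- and 0.817% in CD24hi cells, beside the values of the 4 AT2 markers given above, and the part of AT2 RNA in them was not tested. *Lpl*, lipoprotein lipase, which releases fatty acids from lipoproteins, was highest in EpCAM- cells (41.5, 48.1 and 35.8 RPKM), then in alveolar cells (22.8, 20.9 and 22.4 RPKM), and lowest in BSCs (0.154, 0.314 and 0.349 RPKM). Each of those populations was apart from the others. *Pparg*, a nuclear receptor of lipid storage genes, was highest in CD24lo and CD24hi cells (9.74, 11.7 and 13.2 and 10.5, 8.96 and 9.47 RPKM), which the test did not separate (-0.26 ± 0.15, adjusted p = 0.173). Alveolar libraries held 3.51, 2.69 and 3.21 RPKM of *Pparg*, below both. The difference from tracheal non-basal cells, 0.43 ± 0.17 (adjusted p = 0.036), was lost without non-basal replicate 2 or 3 or alveolar replicate 1 or 3 (adjusted p from 0.0775 to 0.154), with limma voom (0.0533), no filter (0.052), library size alone (0.0557) or only the 6 libraries compared (0.0759).

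Both sterol exporters averaged highest in BSCs. *Abca1*, which passes cholesterol to lipid-poor apolipoproteins, stood at 25.9, 22.8 and 23.4 RPKM in BSC libraries, 15.6, 15.8 and 18.1 in EpCAM- libraries and 3.25, 4.27 and 2.92 in alveolar libraries. BSCs did not overlap another population, and alveolar cells were 6.90-fold below them (-2.79 ± 0.20, adjusted p = 1.09e-09). Against tracheal non-basal cells the alveolar difference in *Abca1* (-0.60 ± 0.19, adjusted p = 0.0105) was lost without non-basal replicate 1 (adjusted p = 0.0556) or alveolar replicate 3 (adjusted p = 0.0514) or with a gene length offset (-0.38, adjusted p = 0.072). *Abcg1*, which exports sterol to lipoprotein particles, stood at 4.00, 3.58 and 3.67 RPKM in BSC libraries and 0.167, 0.806 and 0.468 in alveolar libraries (11, 51 and 27 reads). BSCs were not separated from CD24hi cells, the next population in *Abcg1* (adjusted p = 0.0717). Alveolar replicate 2 held most of the *Abcg1* reads, and without it the log2 fold change went from -2.97 to -3.59 against BSCs, from -1.06 to -1.68 against tracheal non-basal cells, from -2.37 to -2.99 against CD24hi cells, from -1.35 to -1.98 against CD24lo cells and from -1.89 to -2.51 against EpCAM- cells. The call against tracheal non-basal cells was lost without alveolar replicate 1 (-0.64, adjusted p = 0.108), and that against CD24lo cells without CD24lo replicate 1 (-1.02, adjusted p = 0.0538). Of 13 other genes of uptake, storage and export, 9 were higher and 3 lower in alveolar cells than in BSCs, where 66.1% of all genes tested were called. *Abca3*, which loads phospholipid into lamellar bodies, averaged 372 RPKM in alveolar cells and 11.2 to 59.7 elsewhere. *Plin2*, a lipid droplet coat protein, averaged 97.3 RPKM in alveolar cells, 55.0 in tracheal non-basal cells and 16.2 in BSCs.

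**Figure D4:**
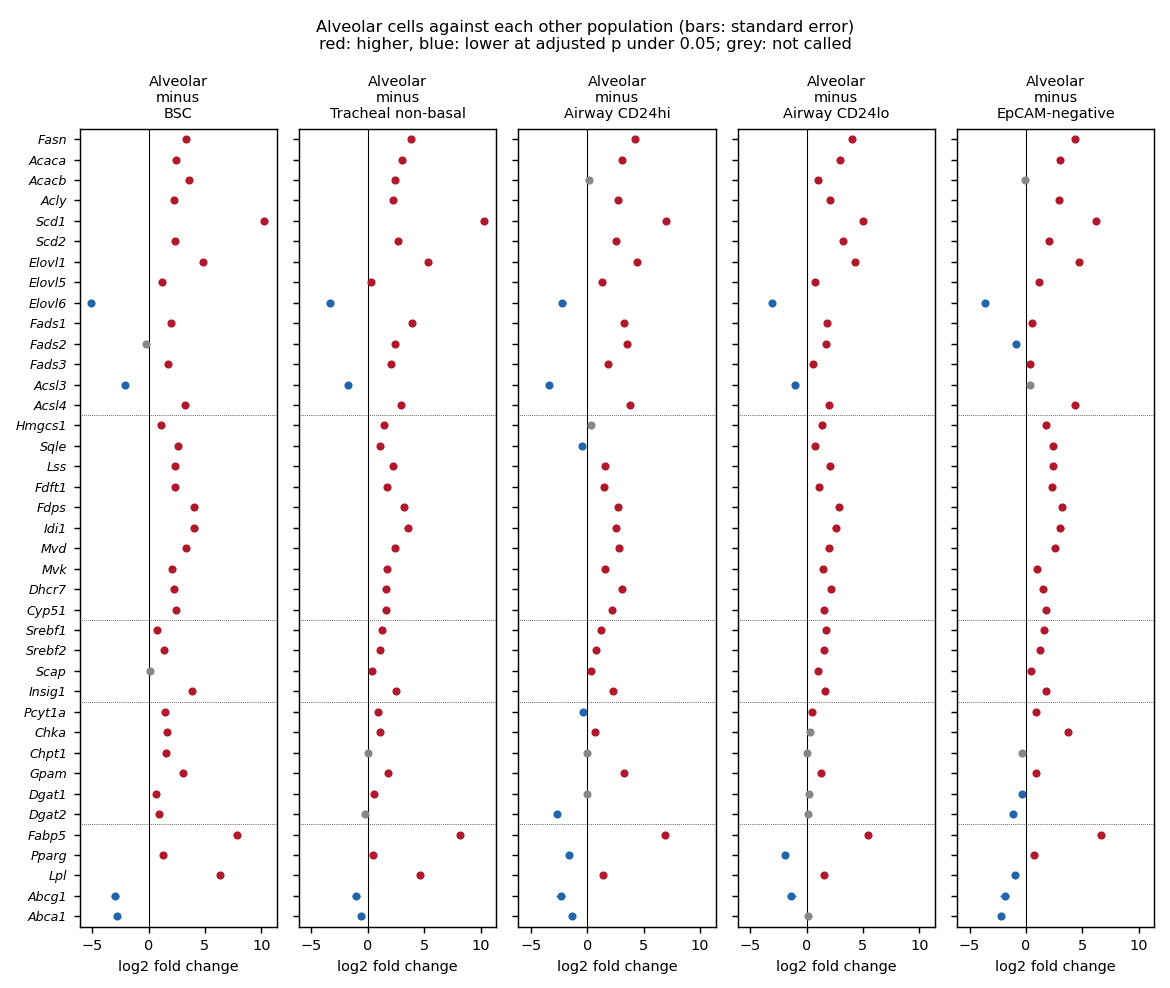
Log2 fold change (x axis, with a bar of 1 SE) of each of the 39 genes (y axis, grouped by class) in alveolar cells against BSCs, tracheal non-basal, CD24hi, CD24lo and EpCAM- cells in turn. Red points are higher and blue points lower at an adjusted p under 0.05, and grey points are not called. Most fatty acid and all regulator points are on the right, although *Scap* against BSCs is not called and turns with scaling by library size alone, and *Acsl3*, *Elovl6*, *Abcg1* and *Abca1* are on the left in most panels.

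Within the trachea, BSCs were set against the NGFR- cells of the same animals. Of the 39 genes, 10 were higher and 18 lower in BSCs, where 21.9% and 26.2% of all genes tested were (48.2% in either direction). With the mouse as a block the counts were 14 and 20, and with the same 6 libraries and no block they were 13 and 20. Scaling by library size alone, which moves the median of all genes to 0.31, gave 15 higher and 13 lower. Of the 14 fatty acid genes 7 were higher and 2 lower in BSCs, while no sterol gene was higher and 7 of 10 were lower (1 and 5 with library size alone). Of the other genes of these pathways, 4 of 18 fatty acid genes were higher and 10 lower in BSCs (median log2 fold change -0.46), and 1 of 12 sterol genes was higher and 6 lower. *Fads2* (2.57 ± 0.16, adjusted p = 6.03e-10), *Fads1* (1.96 ± 0.14, adjusted p = 4.14e-09) and *Elovl6* (1.71 ± 0.17, adjusted p = 2.21e-07) were the fatty acid genes with the largest differences above non-basal cells. *Acacb* (-1.16 ± 0.16, adjusted p = 1.46e-05) and *Elovl5* (-0.87 ± 0.10, adjusted p = 1.92e-06) were those that were lower. The non-basal libraries held 7.59, 6.82 and 8.21 RPKM of *Fads2* and 6.77, 7.30 and 9.25 of *Fads1*, and none reached the BSC values. Smaller differences lost their call when 1 library was left out. *Elovl1* (0.44 ± 0.15, adjusted p = 0.021) was lost without BSC replicate 1 (adjusted p = 0.0651), non-basal replicate 2 (0.0757) or non-basal replicate 3 (0.0684), and *Fads3* (0.27 ± 0.11, adjusted p = 0.0467) without any 1 of the 6 except BSC replicate 1 (adjusted p from 0.0736 to 0.143), with no filter (0.0611) or with a gene length offset (0.0626).

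Sterol genes lower in BSCs were led by *Sqle* (-1.58 ± 0.14, adjusted p = 5.31e-08), with 6.60, 6.63 and 6.09 RPKM in BSC and 18.6, 20.2 and 18.9 in non-basal libraries. *Mvd* (-0.96 ± 0.17, adjusted p = 0.000172), *Fdps* (-0.82 ± 0.17, adjusted p = 0.000678), *Cyp51* (-0.79 ± 0.15, adjusted p = 0.000269) and *Fdft1* (-0.64 ± 0.12, adjusted p = 0.000316) followed, and the groups overlapped for none of these 5 enzymes. *Dhcr7* (-0.65 ± 0.20, adjusted p = 0.0131) was lost without BSC replicate 3 (adjusted p = 0.0678) or non-basal replicate 1 (0.0502), or with library size alone (-0.30, adjusted p = 0.228). *Mvk* (-0.32 ± 0.12, adjusted p = 0.0328) was lost without BSC replicate 2 (0.075) or 3 (0.124) or non-basal replicate 1 (0.052) or 2 (0.133) or with a gene length offset (0.0784), and its sign turned with scaling by library size alone (0.027, adjusted p = 0.883). *Srebf2* was lower in BSCs (-0.25 ± 0.089, adjusted p = 0.0276), a call that was lost without BSC replicate 1 or 3 or any 1 non-basal library (adjusted p from 0.0605 to 0.0943) and whose sign turned with library size alone (0.096, adjusted p = 0.403). *Insig1* was lower (-1.34 ± 0.15, adjusted p = 6.92e-07) and *Srebf1* higher (0.48 ± 0.13, adjusted p = 0.00522) in BSCs.

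None of the 6 phospholipid and glycerolipid genes was higher in BSCs and 5 were lower, of which *Pcyt1a* (adjusted p = 0.0638) and *Chka* (0.167) were lost with library size alone. Of the other 27 genes of the class, 6 were higher and 7 lower, near the shares of all genes tested. Those shares were 21.9% higher and 26.2% lower. *Chpt1* (-1.58 ± 0.19, adjusted p = 2.23e-06), *Gpam* (-1.27 ± 0.14, adjusted p = 9.98e-07) and *Dgat2* (-1.18 ± 0.16, adjusted p = 1.14e-05) differed most, and BSC and non-basal libraries did not overlap for any of them. *Lpl* was lower in BSCs (-1.68 ± 0.24, adjusted p = 1.65e-05) and *Abca1* (2.18 ± 0.19, adjusted p = 5.12e-08) and *Abcg1* (1.91 ± 0.30, adjusted p = 4.08e-05) were higher. With only the 6 libraries compared and no block, calls were gained for *Acsl3* (0.24, adjusted p = 0.0102), *Hmgcs1* (0.37, adjusted p = 0.00585) and *Scap* (0.21, adjusted p = 0.00272), higher in BSCs, and for *Acsl4* (-0.27, adjusted p = 0.00133) and *Idi1* (-0.52, adjusted p = 0.0499), lower. *Scap* was also called by DESeq2 (adjusted p = 0.0226) and with RLE factors (0.0476). The mouse as a block added *Scd2* (0.30, adjusted p = 9.64e-05) to these. *Scd2* was also called without non-basal replicate 1 (0.54, adjusted p = 0.032). *Acly* was not called in this comparison (-0.024 ± 0.092, adjusted p = 0.858) and was called higher in BSCs with library size alone (0.32, adjusted p = 0.00283).

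Within the lung airways, 13 of the 39 genes were higher and 16 lower in CD24hi than in CD24lo cells, where 27.8% and 27.2% of all genes tested were (55.0% in either direction). Of the 14 fatty acid genes 3 were higher and 8 lower in CD24hi cells, and of the 18 others tested 4 were higher and 9 lower. *Acsl3*, higher by 2.37 ± 0.15 (adjusted p = 1.5e-09), stood at 56.0, 81.4 and 82.4 RPKM in CD24hi and 17.7, 12.2 and 12.7 in CD24lo libraries. *Scd1* (-1.99 ± 0.23, adjusted p = 7.45e-07), *Fads2* (-1.80 ± 0.18, adjusted p = 1.92e-07) and *Acsl4* (-1.78 ± 0.23, adjusted p = 3.13e-06) were lower. The summed AT2 markers were also lower in CD24hi than in CD24lo libraries, as given above, and their part in the difference in *Scd1* was not tested. *Acsl4* in CD24hi replicate 1 was the lowest of its group. *Fasn* was not called (-0.18 ± 0.11, adjusted p = 0.159), except without CD24hi replicate 1 (-0.28, adjusted p = 0.027).

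Sterol genes divided between the airway populations, with 3 higher and 4 lower of 10 (3 and 2 with library size alone, where *Cyp51* and *Fdft1* were lost), and 3 higher and 5 lower of the 12 others. *Sqle* (1.19 ± 0.14, adjusted p = 9.41e-07), *Hmgcs1* (1.04 ± 0.17, adjusted p = 5.28e-05) and *Lss* (0.56 ± 0.14, adjusted p = 0.00306) were higher in CD24hi cells. *Dhcr7* (-0.93 ± 0.24, adjusted p = 0.0036), *Mvd* (-0.76 ± 0.19, adjusted p = 0.00242) and *Cyp51* (-0.60 ± 0.15, adjusted p = 0.0033) were lower, and *Fdft1* (-0.40 ± 0.13, adjusted p = 0.0122) was lost without CD24hi replicate 3 (0.0591) or CD24lo replicate 2 (0.066). *Srebf1*, *Srebf2* and *Scap* were higher in CD24hi cells (0.45, 0.79 and 0.71), of which *Srebf1* was lost with only the 6 libraries compared (0.43, adjusted p = 0.0616), and *Insig1* was lower (-0.65 ± 0.14, adjusted p = 0.000985).

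Of the 39 genes, *Dgat2* had the largest log2 fold change between the airway populations. It was 7.07-fold higher in CD24hi cells (2.82 ± 0.17, adjusted p = 9.13e-10), with 2.62, 2.05 and 1.48 RPKM in CD24lo libraries. *Gpam* was 3.94-fold lower in them (-1.98 ± 0.15, adjusted p = 6.38e-09), with 21.5, 32.9 and 34.0 RPKM in CD24lo libraries. Neither gene overlapped between these populations. *Pcyt1a* was higher in CD24hi cells (0.80 ± 0.09, adjusted p = 6.3e-07) and *Chka* lower (-0.37 ± 0.13, adjusted p = 0.0282). The call for *Chka* was lost with only the 6 libraries compared, without (-0.39, adjusted p = 0.0838) or with (-0.38, adjusted p = 0.0604) the mouse as a block, with library size alone (adjusted p = 0.68) and without CD24hi replicate 3 (0.0985) or CD24lo replicate 2 (0.177). *Chpt1* was not called (0.075 ± 0.19, adjusted p = 0.765) unless CD24hi replicate 1 was left out (0.36, adjusted p = 0.000672). *Dgat1*, which was not called (0.20 ± 0.14, adjusted p = 0.239), was called without CD24hi replicate 3 (0.0403) or CD24lo replicate 1 (0.0222). *Abca1* was higher in CD24hi cells (1.50 ± 0.20, adjusted p = 3.78e-06), and *Abcg1*, also higher (1.01 ± 0.32, adjusted p = 0.0133), was lost without CD24lo replicate 3 (0.0645). *Fabp5* was lower in CD24hi cells (-1.50 ± 0.30, adjusted p = 0.000331), at 15, 13 and 7 reads. Of the other 27 phospholipid and glycerolipid genes, 16 were higher and 3 lower in CD24hi than in CD24lo cells (all genes 27.8% and 27.2%). Among those higher were *Cds1* (2.61 ± 0.17, adjusted p = 1.26e-09) and *Pcyt1b* (2.10 ± 0.15, adjusted p = 3.92e-09).

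**Figure D5:**
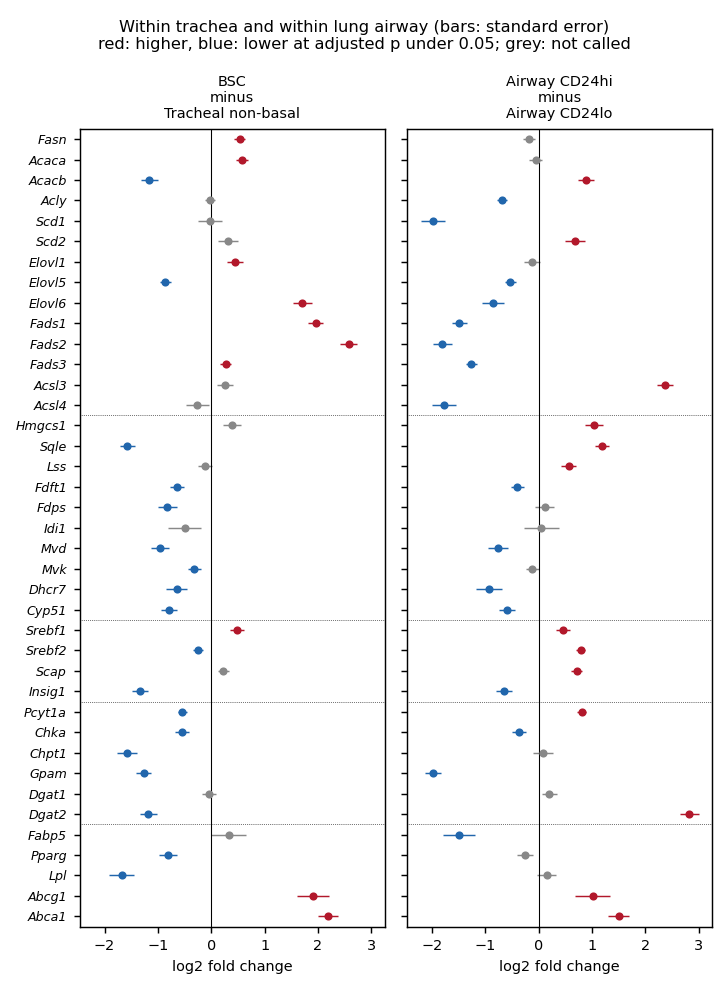
Log2 fold change (x axis, with a bar of 1 SE) of each of the 39 genes (y axis, grouped by class) in BSCs against tracheal non-basal cells and in CD24hi against CD24lo cells. Red points are higher and blue points lower at an adjusted p under 0.05, and grey points are not called. In the tracheal panel all sterol points but *Hmgcs1* are left of zero, and in the lung panel they lie on both sides. Of the sterol genes called in the tracheal panel, *Mvk* turns and *Dhcr7* loses its call with scaling by library size alone. Points that are not called can turn as well.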

How the data were processed

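RNA from FACS-sorted cells was sequenced as 100 bp single-end reads. According to the labels and the study's methods, the authors converted base calls with bcl2fastq 1.8.4, aligned reads to mm10 with Rsubread and deposited raw read counts per Entrez gene from featureCounts with the annotation built into that package. Whether the libraries keep strand is not given in the sources used here. The deposited counts of 18 libraries held 27179 genes, of which 25275 matched a symbol, and no row without a gene.

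Genes above 0.2 CPM in at least 3 libraries were kept (17989). Counts were scaled by TMM and fitted with edgeR 4.0.16 (quasi-likelihood, R 4.3.3) as a mean for each of 6 populations over all 18 libraries. Differences were called at a Benjamini-Hochberg adjusted p under 0.05 over all genes tested. Overlap of libraries between populations was read for the listed genes alone, so no share over all genes stands beside it. RPKM was computed here from the counts, the gene lengths in the files and TMM-scaled library sizes, and SE is the absolute log2 fold change over the root of the F statistic. P-values measure the spread between libraries of 3 mice per organ. No pair of replicates agreed within sampling noise (chi-square per degree of freedom at least 3.67). On counts simulated for alveolar cells against BSCs, 57.5% of genes changed 2-fold and 85.1% of genes changed 4-fold were recovered. There 200 of 17989 genes were changed, all others had equal means in every population, and 6 unchanged genes were called. In the measured comparison 66.1% of genes were called, so these shares do not give its rate of recovery.

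Replicate numbers mark the same mouse within an organ, so they pair BSCs with non-basal cells (correlation of deviations 0.34, 0.12 and 0.22) and the 4 lung populations with each other (CD24hi with CD24lo 0.28, 0.044 and 0.17, and alveolar with the other lung populations -0.059 to 0.093), and a fit with the mouse as a block was run on the libraries compared. The series text speaks of airways of lungs where the sample labels give trachea, and the labels were used. The genes described, the other genes of each pathway and the markers were chosen with earlier results of these data known. All 39 genes are named, with 16 other genes of the pathways chosen for their place in it, of which 1 is not reported here. Alternatives were limma voom (limma 3.58.1), scaling by library size alone or by RLE factors, DESeq2 1.42.0, a gene length offset, CPM above 1, no filter, only the libraries compared, the mouse as a block, and each library left out in turn. Promoters are from RefSeq (GRCm38.p6).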

Additional observations from a re-analysis of the deposited data

How the results depend on the processing

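Of 273 log2 fold changes (39 genes in 7 comparisons), 236 were called. The call, and the direction of called values, were kept by 273 with CPM above 1, 272 each with DESeq2, RLE factors and limma voom, 271 with no filter, 267 with a gene length offset, 261 with only the libraries compared, 262 with the replicate block, 250 with library size alone, and 1588 of the values with 1 library left out (8 gained a call and 42 lost it). Values with no call in either setting count as kept here, also the 47 of them whose sign changed. Library size alone moved the median of all genes to -0.292 (alveolar against BSC), -0.290 (CD24hi), -0.193 (EpCAM-), 0.310 (BSC against non-basal) and 0.214 (CD24hi against CD24lo), and the higher and lower calls over all genes to 4363 and 7924, 3858 and 7285, 4121 and 6938, 7780 and 2989, and 7002 and 3233, from 6410 and 5485, 5652 and 5479, 5254 and 5875, 3948 and 4720, and 4998 and 4901. It reversed *Scap* against BSCs (-0.30) and *Acly* (0.32), *Mvk* (0.027) and *Srebf2* (0.096) in BSCs against non-basal cells, and left 21 of 23 genes above each other population in alveolar cells. With it, the median log2 fold changes of fatty acid, sterol, regulator, phospholipid and uptake genes became 1.89, 2.00, 0.64, 1.10 and 0.85 against BSCs, 2.58, 1.56, 0.68, -0.33 and -1.71 against CD24hi cells, and 0.64, -0.30, 0.33, -0.52 and 0.67 in BSCs against non-basal cells. Against EpCAM- cells the fatty acid, regulator and phospholipid medians became 1.43, 1.24 and 0.11, and in CD24hi against CD24lo cells the fatty acid, sterol, regulator and uptake medians became -0.32, 0.25, 0.87 and 0.43. A gene length offset gave 2.49, 1.20 and 1.64 for fatty acid, regulator and phospholipid genes against BSCs, 2.66 for fatty acid genes against non-basal cells and -0.11 for regulators in BSCs against non-basal cells, and left 1 gene, *Elovl6*, above each other population in BSCs. Leaving out 1 library gave 0.24 to 0.41 for the fatty acid median in BSCs against non-basal cells, the highest without non-basal replicate 1. The cause of these moves was not tested.

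Alveolar cells share only a number, and no mouse, with BSCs (correlations 0.055, 0.0054 and -0.0041) and non-basal cells (-0.02, 0.013 and -0.007). There the replicate block kept the call of *Fads2* (-0.24, adjusted p = 0.00899) that the same 6 libraries gave without it (-0.24, adjusted p = 0.0145). In the comparisons within an organ the block changed no call against the fit of all libraries beyond those given with the results. Low counts limit *Elovl6* and *Abcg1* in alveolar cells and *Fabp5* and *Lpl* in BSCs.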
